A study of Sus scrofa with 2 samples.

Results

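The SULT1E1-positive contractile barcodes of pig endometrium were 80 of the 10045 cell barcodes of library 1, or 0.796% (exact binomial 95% interval 0.632% to 0.990%), in a series of 25138 barcodes. They were chosen by raw unique molecular identifiers (UMIs, 1 per captured transcript): at least 1 for SULT1E1, at least 2 for ACTG2, CNN1 and DES together, and 0 for the leukocyte gene PTPRC and the vascular muscle gene RERGL. The study took endometrium, the inner lining of the uterus, from 1 inseminated Yorkshire sow at day 7 of gestation, before receptivity, and 1 at day 13, in the receptive period; both were 3 years old. Each stage is a single animal and a single droplet library. The sample labels do not give the day of a library; the deposited matrix of library 1 carries the mark Pre-ER and that of library 2 the mark ER. With 1 library on each side no difference can be tested, so every comparison below is a description of these libraries, and intervals cover counting error only.

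SULT1E1 encodes the oestrogen sulfotransferase, which attaches a sulfate group to oestrogens and so keeps them from binding their receptor. ACTG2, CNN1 and DES encode enteric smooth muscle actin, calponin and desmin, parts of the contractile apparatus and its filament scaffold. In the uterus smooth muscle lies in the myometrium beneath the endometrium and in vessel walls, where pericytes also carry contractile proteins, while the stroma between glands consists of collagen-producing fibroblasts. The question put to these barcodes was whether the rest of their transcripts are those of muscle or of stroma.

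The answer in the deposited counts lay in between, and the 80 barcodes were not of a single kind. They carried much more ACTA2 and TAGLN than stroma and much more DCN and COL1A1 than vascular smooth muscle, and they were low in the vessel-wall gene RGS5. Clustering of library 1 without the genes of the rule put 38 of the 80 in a single cluster led, outside the rule's genes, by C7, SELENBP1 and DKK2, 14 in pericyte-like clusters, 17 in clusters made mostly of called doublets and 11 elsewhere. The label is therefore kept as the name of a rule, not of a cell type, and the single cluster is called the C7 and DKK2 cluster, after a pair of proposed markers.

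The values of the rule's own genes describe the choice and nothing more. SULT1E1 had 1 UMI in the lowest, 3 in the median and 14 in the highest of the 80 barcodes, and the 305 UMIs in all were 16.8% of the 1820 in library 1. The 3 contractile genes together had 2, 3 and 102 UMIs at the lowest, median and highest. CNN1 was present in 67 of the 80 barcodes, DES in 43 and ACTG2 in 21. Of the 117 UMIs of ACTG2, 53 came from a single barcode. The limits of the rule cut through a continuous range: 32 of the 80 had exactly 2 contractile UMIs, 23 had exactly 1 SULT1E1 UMI and 10 stood at both limits. Just outside, 81 further barcodes with SULT1E1 had 1 contractile UMI, 267 had 0, and 698 barcodes with 2 or more contractile UMIs had no SULT1E1. Another 28 met both minimums but held PTPRC, in 6 of them, or RERGL, in 22. In library 2 the same rule found 4 of 15093 barcodes, all 4 called doublets with 11180 to 17869 UMIs, too few to compare. The libraries shared 48 barcode sequences.

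The chosen barcodes were deeper than most. Their median was 4864 UMIs (lowest 1606, highest 91725), against 3431 in library 1 as a whole. Scrublet, which scores how closely a barcode resembles a simulated pair of cells, called 22 of the 80 doublets, or 27.5% (18.1% to 38.6%), against 11.9% of library 1. The deepest barcode, with 91725 UMIs, held 16.2% of all UMIs of the 80 and had 75 UMIs of the epithelial keratin KRT8; it fell in a cluster led by AQP3, an epithelial one. Values that rest on it are given without it below.

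Comparison classes came from library 1, all without SULT1E1 and PTPRC. They were set by markers outside the rule and, in part, by RERGL and the contractile genes of the rule. Stroma (at least 2 UMIs of CRABP1, ANPEP and OGN together, at most 1 contractile UMI, no RERGL) held 1963 barcodes. Vascular smooth muscle (at least 2 UMIs of RERGL) held 650, and pericytes (at least 2 UMIs of PCP4, EDNRB and HEYL together, no RERGL) held 1486. Their median depths were 4851, 3666 and 3360 UMIs, and 10.7%, 24.3% and 12.7% of them were called doublets. The stroma class was limited in its contractile UMIs and the 80 barcodes were chosen for theirs, so a gap in other muscle genes between these groups is partly set by the choice. A barcode that met more than 1 class rule was left out of all classes. A stroma barcode therefore held at most 1 UMI of PCP4, EDNRB and HEYL together, which partly sets the gap to stroma in these genes.

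**Figure D1:**
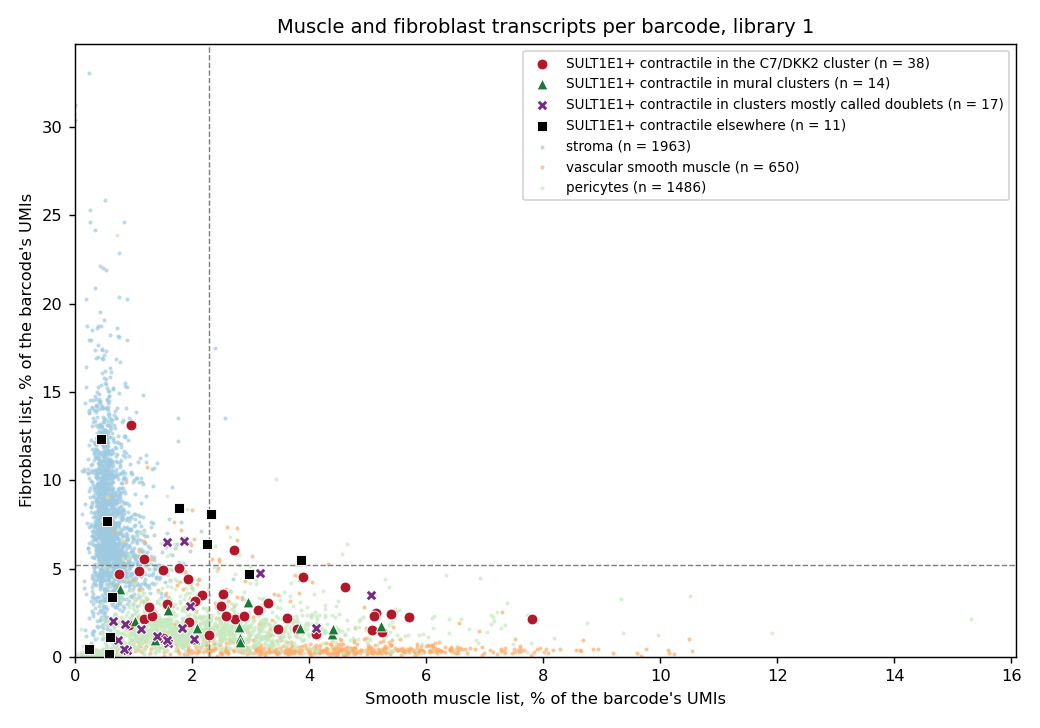
Each point is a barcode of library 1, placed by the share of its UMIs in 30 smooth muscle genes (x axis, %) and in 27 fibroblast genes (y axis, %), none of them genes of the rule. Large symbols are the 80 SULT1E1-positive contractile barcodes by cluster, small points the comparison classes, and dashed lines the lower quartile of vascular smooth muscle (2.29%) and of stroma (5.20%). Most of the 80 lie to the right of stroma and above vascular smooth muscle, and 3 are past both lines.

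Barcode by barcode, smooth muscle transcripts took a median of 2.05% of the UMIs in the 80 barcodes, against 0.56% in stroma, 3.66% in vascular smooth muscle and 1.91% in pericytes. Fibroblast transcripts took 2.28%, against 7.03% in stroma, 0.45% in vascular smooth muscle and 1.44% in pericytes. By muscle share 35 of the 80 reached the lower quartile of vascular smooth muscle, by fibroblast share 11 reached that of stroma, and 37 reached neither. Both were reached by 3 of 80 (3.75%), against 0.10% of stroma and 1.23% of vascular smooth muscle. On both shares together the 80 barcodes thus sat nearest to the pericytes, with somewhat more fibroblast RNA.

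Among the contractile genes outside the rule, TAGLN, the actin-binding protein transgelin, had 0, 19.5 and 164 UMIs at the lowest, median and highest of the 80 barcodes. In stroma the same 3 values were 0, 1 and 60, and in vascular smooth muscle 0, 34 and 204. The ranges overlap throughout, while the summed level of the 80 barcodes was 4065 CPM (its UMIs as a share of all UMIs of the class), against 261 CPM in stroma, a log2 ratio of 3.96 (3.88 to 4.04). It was 7971 CPM in vascular smooth muscle, which made the 80 barcodes lower by a log2 ratio of -0.97, and 4001 CPM in pericytes. ACTA2, the vascular smooth muscle actin, had a median of 17.5 UMIs in the 80 barcodes, against 1 in stroma, 17 in vascular smooth muscle and 7 in pericytes. Its summed level was 3879 CPM, against 349 CPM in stroma, 4658 CPM in vascular smooth muscle and 3023 CPM in pericytes. Unlike TAGLN, it was close to the vascular muscle level. MYL9, a regulatory light chain of smooth muscle myosin, stood at 623 CPM, against 99.6 CPM in stroma and 1335 CPM in vascular smooth muscle.

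Over the whole genome, 6323 named genes outside the rule and the class markers could be compared with stroma, and 6.93% of them were more than 2-fold higher and 5.8% more than 2-fold lower in the 80 barcodes. With so few barcodes a gene near the minimum level rests on a handful of UMIs, so part of these shares is counting noise. When each barcode was thinned to 1000 UMIs the higher share of all differing genes was 76.5%, against 54.4% as deposited. Higher calls rose from 438 of 6323 genes to 690 of 4162, and lower calls fell from 367 to 212 of the same totals. A class below 3 UMIs is set to 3, which after thinning stands at a higher CPM and bars lower calls for weak genes. The shift in direction is thus partly set by this limit, here and in the thinned shares below. Of the 27 smooth muscle genes measured, 15 were more than 2-fold higher than in stroma and 0 lower, with a median log2 ratio of 1.08, against 0.04 over all genes. Against vascular smooth muscle, where 5.32% of 6340 genes were higher and 7.62% lower (61.0% of the differing genes higher after thinning, against 41.1%), 2 of 28 were higher and 9 lower. The median was -0.53, against -0.05 over all genes. The genes furthest below vascular smooth muscle were ITGA7, an integrin of muscle cells, at a log2 ratio of -2.23, PDLIM3 at -1.77 and DSTN, an actin-depolymerising factor, at -1.73. HSPB6, a small heat shock protein of smooth muscle, was higher, at 343 CPM against 127 CPM. Against pericytes, with a background of 3.28% higher and 4.88% lower in 6314 genes (69.2% higher after thinning, against 40.2%), 1 of 27 was higher and 1 lower, with a median of 0.05. MYH11, LMOD1 and MYOCD carry no symbol in the feature table and were not analysed here.

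Vessel-wall genes were lower in the 80 barcodes than in both mural classes. The 80 were required to lack RERGL, which removed 22 barcodes, while the vascular muscle class was required to hold it, so the gap to that class is partly set by the choice. The pericyte class was chosen by PCP4, EDNRB and HEYL, which are in the mural list, so the gap to pericytes may be partly set too. RGS5, a G-protein regulator typical of pericytes and vascular muscle, was found in 19 of the 80, against 622 of 650 vascular muscle barcodes and 850 of 1486 pericytes. Its level was 177 CPM, against 35.2 CPM in stroma, 3342 CPM in vascular smooth muscle and 1369 CPM in pericytes. The log2 ratio was -4.24 against vascular smooth muscle and -2.95 against pericytes. Of the mural genes measured, 9 of 16 were more than 2-fold lower than in vascular smooth muscle and 9 of 14 than in pericytes, and 0 were higher in either, with medians of -1.30 and -1.29. In the 38 of the C7 and DKK2 cluster alone the median against pericytes was -0.53. Their sum holds fewer UMIs, so the limit of 3 UMIs stands at a higher CPM and can make weak genes look less low. Barcode by barcode, mural genes outside the rule and the pericyte markers took a median of 0.078% of UMIs in the 38. The same share was 0.081% in all 80 and 0.241% in pericytes. Against stroma 10 of 14 were higher and 0 lower. Among the higher were PCP4 and EDNRB, whose level in stroma was limited by the class rules. MCAM, an adhesion molecule of vessel walls, was at 33.6 CPM, against 197 CPM in vascular smooth muscle and 146 CPM in pericytes. PDGFA was at 40.7 CPM, against 308 CPM and 159 CPM in these classes. Within the 80, RGS5 was uneven: 1247 CPM in the 14 barcodes of the pericyte-like clusters and 31.6 CPM in the 38 of the C7 and DKK2 cluster.

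**Figure D2:**
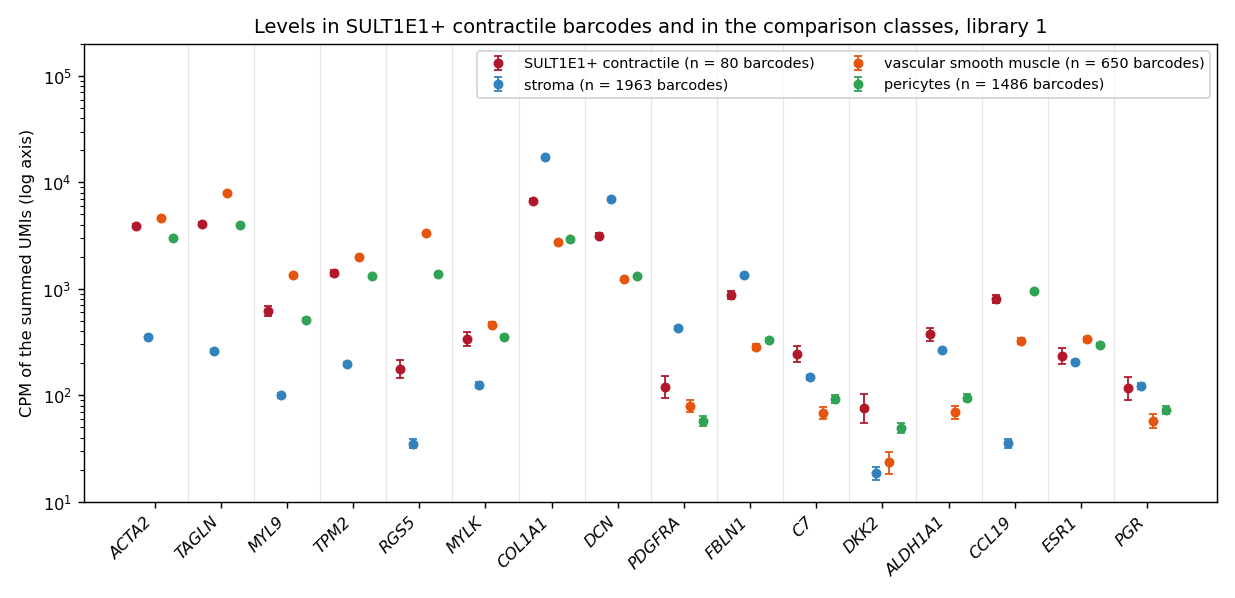
Summed level of 16 genes (y axis, CPM, log axis) in the 80 SULT1E1-positive contractile barcodes, stroma, vascular smooth muscle and pericytes, with exact 95% Poisson intervals. For ACTA2, TAGLN, MYL9 and TPM2 the 80 barcodes stand well above stroma, and of these TAGLN and MYL9 lie furthest below vascular smooth muscle. For RGS5 the 80 stand below both mural classes, and for COL1A1 and DCN between the mural classes and stroma.

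The fibroblast genes were intermediate. DCN, which encodes the collagen-binding proteoglycan decorin, was found in all 80 barcodes, with 1, 14 and 205 UMIs at the lowest, median and highest. The median was 32 UMIs in stroma, 1 in vascular smooth muscle and 3 in pericytes. The summed level was 3166 CPM, against 6920 CPM in stroma (log2 ratio -1.13), 1225 CPM in vascular smooth muscle (1.37) and 1318 CPM in pericytes (1.26). COL1A1, a chain of type I collagen, followed the same order with 6716 CPM, against 17262, 2764 and 2940 CPM in stroma, vascular smooth muscle and pericytes. PDGFRA, the receptor that marks most fibroblasts, was nearer the mural level, at 120 CPM, against 433 CPM in stroma, 79.1 CPM in vascular smooth muscle and 57.5 CPM in pericytes. Of 25 fibroblast genes, 12 were more than 2-fold lower and 3 higher than in stroma, with a median log2 ratio of -0.66. Of 26, 14 were higher and 1 lower than in vascular smooth muscle (median 1.05), and 10 higher and 1 lower than in pericytes (median 0.73). Without the deepest barcode, when 7.41% of all genes were higher than in stroma and 6.62% lower, 8 fibroblast genes instead of 12 were lower. LOX, an enzyme that cross-links collagen, was at 244 CPM, close to the 219 CPM of stroma and above the 55.4 CPM of vascular smooth muscle.

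Genes that differ most between the 2 ends gave the same picture on a common scale. For each of 124 genes at least 4-fold higher in vascular smooth muscle than in stroma, a position was computed from 0, the stroma level, to 1, the muscle level, on the log2 scale. The 80 barcodes had a median position of 0.46 (quartiles 0.28 and 0.62), and 57 of the 124 genes lay nearer to muscle. PCP4, at 0.92, and EDNRB, at 0.79, were among the 124, with a stroma level limited by the class rules. For 49 genes at least 4-fold higher in stroma the median was 0.63 (0.47 and 0.83), with 36 genes nearer to muscle. Without the deepest barcode the medians were 0.51 and 0.55. Pericytes, placed the same way, stood at 0.67 and 0.97, so the 80 barcodes kept more of the stromal side than pericytes did. CCL19, a lymphocyte-attracting chemokine, lay beyond the muscle end at 1.41, as did WT1, a transcription factor of stromal cells, which was lower than in either class. At the stromal end were SPON1, a secreted matrix protein, at 0.11, and FMO1, a flavin monooxygenase, at 0.02.

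**Figure D3:**
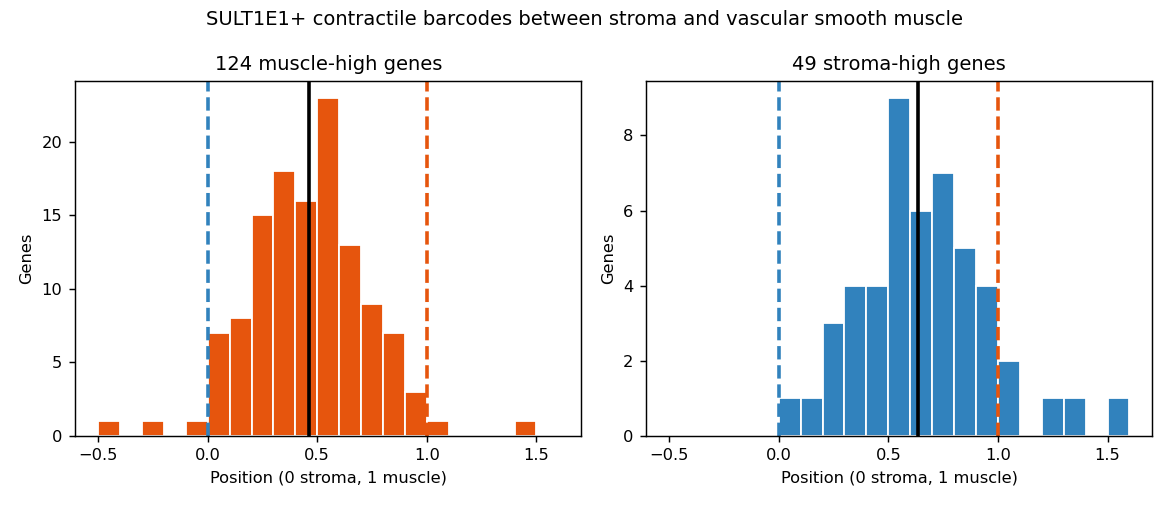
Number of genes (y axis) by the position of the 80 SULT1E1-positive contractile barcodes between stroma (0, blue dashed line) and vascular smooth muscle (1, orange dashed line), for 124 muscle-high and 49 stroma-high genes. The black lines are the medians, 0.46 and 0.63, and most genes lie between the ends.

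The largest ratios against stroma were those of CCL19, at 802 CPM against 35.4 CPM, PCP4, a calmodulin regulator, at 235 CPM against 11.1 CPM, and EDNRB, an endothelin receptor, at 136 CPM against 6.79 CPM. SYTL2, TAGLN, FHL2 and ACTA2 followed, with log2 ratios from 4.08 to 3.47. FABP5, a fatty acid carrier, also ranked there at 3.47, but 123 of its 144 UMIs in the 80 came from a single barcode, and the ratio was 2.33 with cells weighted equally. Pericytes were also rich in CCL19, at 947 CPM. For PCP4 and EDNRB the gap is partly set by the choice, because the class rules limited their UMIs in stroma. Lowest against stroma were WT1, at 8.85 CPM against 126 CPM, NELL2, at 51.3 CPM against 423 CPM, and WNT2, at 37.2 CPM against 261 CPM. SLC7A8, CNTNAP2, C3, GRIA1 and COL23A1 had log2 ratios between -2.73 and -2.41.

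Against vascular smooth muscle, ALDH1A1, a retinaldehyde dehydrogenase, was at 374 CPM against 68.9 CPM (log2 ratio 2.44), with 42 of its 211 UMIs from the deepest barcode. In pericytes it was at 94.9 CPM. SPON1 (269 CPM against 52.9 CPM), PAK3 (108 against 21.5 CPM) and FMO1 (349 against 78.2 CPM) were also high. Without the deepest barcode the log2 ratios were 2.58 for SPON1, 2.54 for PAK3, 2.41 for FMO1 and 2.37 for ALDH1A1. Lowest were A-FABP, a fatty acid carrier, with 2 UMIs in the 80 barcodes against 214 CPM in vascular smooth muscle, and OLFML2A, at 24.8 CPM against 649 CPM. NCAM1, NPY1R, PTP4A3 and RGS4 had 3 to 5 UMIs each. MAP3K7CL had 0 UMIs, against 170 CPM. With the 80 barcodes set to the limit of 3 UMIs its log2 ratio was -5.00, and the upper end of its 95% interval was -4.70. Against pericytes NTRK3, a neurotrophin receptor, was higher at 110 CPM against 26.8 CPM. ASPN, a proteoglycan, was lower at 46.0 CPM against 259 CPM, as were ADAM22, SEPTIN4, RCAN2 and EPHA2, at log2 ratios from -2.24 to -1.81. KRT18, MT1D, MT1A, CRYM and PLS1 also ranked among the highest, but nearly all of their UMIs came from the deepest barcode. KRT18 had 60 of its 61 UMIs there, and its log2 ratio against vascular smooth muscle was 2.64 with that barcode and -1.45 without it.

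Set against all other 9965 barcodes of library 1, 2.0% of 6390 genes were more than 2-fold higher and 5.12% lower, and after thinning 67.4% of the differing genes were higher, against 28.1%. The highest was FHL2, a LIM-domain protein of muscle, at 104 CPM against 28.4 CPM. GEM, ID4, PAK3, FHL1, ACTA2 and SELENBP1 followed, at log2 ratios from 1.80 to 1.51, along with MT1D, KRT18 and PLS1, whose UMIs came mostly from the deepest barcode. The 10 lowest were of several kinds. CCL5, CCL4, JCHAIN and SRGN, known from leukocytes, had log2 ratios from -4.03 to -2.67, and CTSS, also expressed by leukocytes, -1.85. The endothelial genes KDR and ACKR1 had -1.91 and -1.84. OLFML2A and RGS5, both high in the vascular smooth muscle class, had -2.17 and -1.92, and NELL2, high in the stroma class, -1.72. The absence of PTPRC was part of the choice. Of 8 leukocyte genes measured 8 were lower (median -2.78), and of 16 endothelial genes 10 were lower and 0 higher (median -1.13, against -0.03 over all genes).

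C7, a terminal complement component, and DKK2, a secreted WNT antagonist, were proposed as markers of these cells. C7 was found in 45 of the 80 barcodes, at 244 CPM, against 147 CPM in stroma, 68.2 CPM in vascular smooth muscle and 92.3 CPM in pericytes. DKK2 was found in 30, at 76.1 CPM, against 18.4, 23.4 and 49.2 CPM. Neither marks all of the 80. Other WNT genes moved in both directions against stroma, 3 of 20 higher and 7 lower. WNT5A, a signalling ligand, was at 49.6 CPM against 140 CPM, and FZD7, a receptor, at 24.8 CPM against 4.97 CPM.

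In the hedgehog list GLI1 is a transcription factor induced by the pathway and HHIP a membrane inhibitor of it. The list had a median log2 ratio of 0.06 against stroma, 0.13 against pericytes and 0.53 against vascular smooth muscle. Of 8 genes 0 were higher and 2 lower than in stroma, against 6.93% and 5.8% of all genes. Against vascular smooth muscle 3 were higher and 1 lower (5.32% and 7.62% of all genes), and against pericytes 1 and 0 (3.28% and 4.88%). GLI1 stood at 58.4 CPM, against 52.1 CPM in stroma and 14.7 CPM in vascular smooth muscle. HHIP stood at 63.7 CPM, against 62.9 CPM and 8.01 CPM, but in 10 of the 80 barcodes.

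Steroid genes were mostly within 2-fold of stroma. ESR1, the oestrogen receptor, was found in 51 of the 80 barcodes, at 234 CPM, against 205 CPM in stroma, 335 CPM in vascular smooth muscle and 297 CPM in pericytes. PGR, the progesterone receptor, stood at 117 CPM, against 122 CPM in stroma, 57.7 CPM in vascular smooth muscle and 73.0 CPM in pericytes, so PGR was at the stromal level. Of 12 genes of steroid reception and metabolism, 0 were higher and 1 lower than in stroma. That gene was CYP1B1, which hydroxylates oestrogens, at 205 CPM against 1000.1 CPM. The sulfation list holds enzymes that supply or use the sulfate donor of SULT1E1, but also enzymes that remove sulfate and transporters. Of 12 genes measured in this mixed list, 1 was higher and 1 lower than in stroma, 1 and 0 than in vascular smooth muscle and 1 and 1 than in pericytes. PAPSS1, which makes the donor, was at 63.7 CPM, against 66.2, 67.0 and 95.2 CPM. OXTR, the oxytocin receptor of uterine muscle, had 13 UMIs in 11 of the 80 barcodes, at 23.0 CPM, against 12.2 CPM in stroma, 3.84 CPM in vascular smooth muscle and 15.4 CPM in pericytes.

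Across the 24 clusters of library 1, SULT1E1 was concentrated in a single one. The C7 and DKK2 cluster had 483 barcodes, of which 232, or 48.0% (43.5% to 52.6%), carried SULT1E1. It held 56.4% of all SULT1E1 UMIs of the library, at 646 CPM, and 0.41% of its barcodes were called doublets. Its leading genes outside the rule were C7, SELENBP1, DKK2, FHL2, FHL1 and MYL9, and of the marker lists the smooth muscle contractile one had its highest mean ratio. Endothelial clusters were taken as a guide to background, on the assumption, not tested here, that their cells lack the gene. In the 3 led by PLVAP, CLDN5 and ACKR1, 0.57%, 0.73% and 0.79% of barcodes had a SULT1E1 UMI, at median depths of 3171, 3179 and 2846 UMIs against 2874 in the C7 and DKK2 cluster. The cluster led by MMRN1 and CCL21, genes of lymphatic endothelium, had 1.15% at 3376 UMIs. The cluster led by CENPF, a gene of dividing cells, also had endothelial genes as its highest list and showed 6.25% at 9032 UMIs, and 0.909% with each barcode thinned to 1000 UMIs. The cluster with RERGL among its leading genes was near that, at 1.38%. An epithelial cluster of only 17 barcodes led by NMB had 35.3% (14.2% to 61.7%) at a median depth of 13027 UMIs and none of the 80. Thinned to 1000 UMIs it had 0 of 15 barcodes with SULT1E1, against 34.0% in the C7 and DKK2 cluster. With so few barcodes thinned, a level like its own leaves few UMIs, so the 0 does not show absence. As deposited its level was 60.5 CPM, against 1.30, 5.16 and 2.61 CPM in the clusters led by PLVAP, CLDN5 and ACKR1. A stromal cluster led by HHIP and FMOD had 12.6%, and the CCL19 and PCP4 cluster of pericyte type 6.02%. Thinned to 1000 UMIs, these shares were 4.63% and 4.01%. A cluster led by CLEC3B and RGS5, with 92.4% called doublets, had 12.2%, or 5.26% thinned. It held 10.8% of the SULT1E1 UMIs of the library, at 84.2 CPM.

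**Figure D4:**
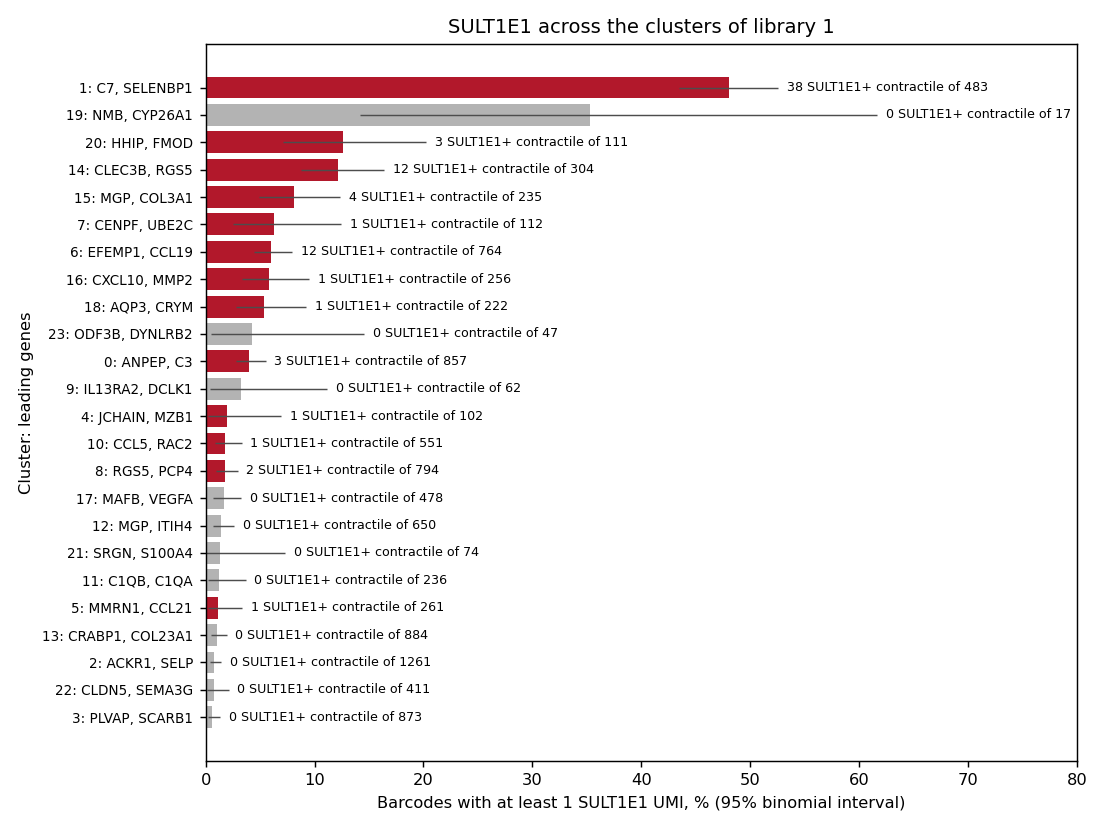
Share of barcodes with at least 1 SULT1E1 UMI (x axis, %, with exact 95% binomial interval) in each of the 24 clusters of library 1 (rows, named by number and 2 leading genes outside the rule). Red bars hold SULT1E1-positive contractile barcodes, whose number stands beside the bar. The C7 cluster has 38 of the 80 and a share of 48.0%.

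The clusters divided the 80 barcodes by their other genes. In the 38 of the C7 and DKK2 cluster the median muscle share was 2.56% and the fibroblast share 2.45%, at a median depth of 3620 UMIs, with 0 called doublets. Their ACTA2 was 6647 CPM, DCN 3659 CPM, C7 474 CPM and DKK2 139 CPM, with PECAM1, an endothelial adhesion molecule, at 12.6 CPM and KRT8 at 0 UMIs. The 14 in pericyte-like clusters, 12 of them in the cluster led by EFEMP1 and CCL19, had a muscle share of 2.81% and a fibroblast share of 1.64%. They carried EDNRB at 597 CPM and PCP4 at 1036 CPM. The 17 in clusters mostly of called doublets had a median of 6984 UMIs, a muscle share of 1.57% and PECAM1 at 262 CPM. The 11 elsewhere, 3 each in the stromal clusters led by ANPEP and HHIP and 1 each in 5 others, had a median of 11794 UMIs, a muscle share of 0.63% and a fibroblast share of 5.51%. Of these 11, 5 were called doublets. The part of paired cells in the mixed profile was not tested. With the 22 called doublets and the deepest barcode set aside, 57 barcodes remained, with ACTA2 at 5185 CPM and DCN at 3617 CPM in their sum. Of these 57, 2 reached both the muscle share of the lower quartile of vascular smooth muscle and the fibroblast share of that of stroma.

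Inside the C7 and DKK2 cluster, SULT1E1 and the contractile genes ran in opposite directions. Among its barcodes without PTPRC, SULT1E1 was found in 54.0% of 265 with no contractile UMI and in 55.7% of 79 with 1. The share was 43.6% of 55 with 2 to 3, 30.4% of 23 with 4 to 9 and 17.0% of 53 with 10 or more. Median depth ran the other way, from 2567 UMIs in the first bin to 6495 UMIs in the last. Thinned to 1000 UMIs per barcode, the shares were 40.9%, 34.6%, 33.3%, 17.4% and 7.55% in the same order. In CPM, SULT1E1 was 883, 876, 617, 267 and 153. Along the same bins the muscle share had medians of 0.82%, 1.61%, 2.04%, 3.09% and 6.39%, while the fibroblast share stayed between 2.48% and 3.44%. The 80 barcodes thus took 24, 7 and 7 of their number from the 3 upper bins, where SULT1E1 is least frequent.

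**Figure D5:**
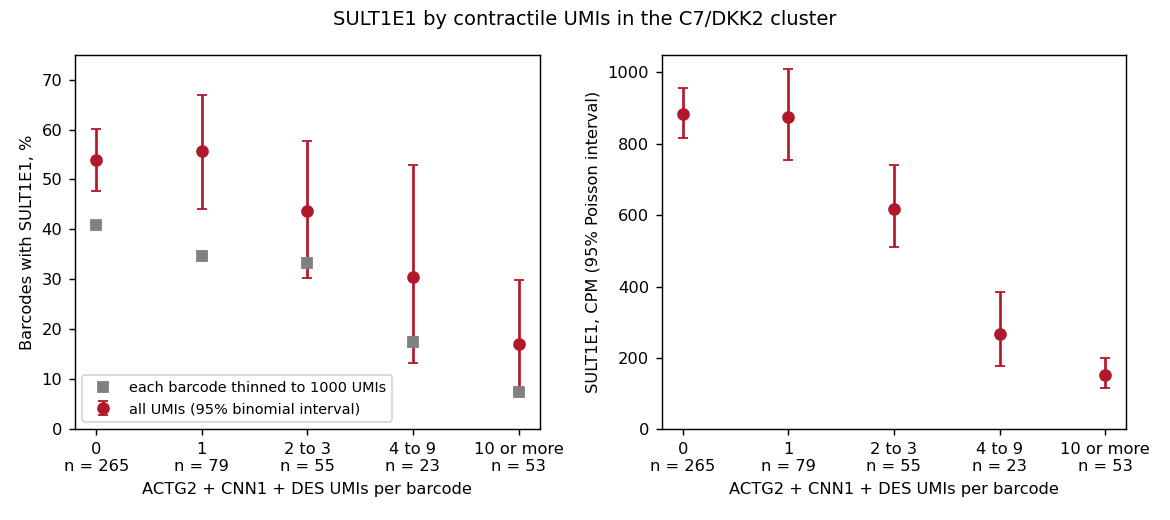
Left, share of barcodes with SULT1E1 (y axis, %) and right, SULT1E1 level (y axis, CPM), by the number of ACTG2, CNN1 and DES UMIs (x axis) in the C7 and DKK2 cluster. Circles are all UMIs with 95% intervals and squares each barcode thinned to 1000 UMIs; both measures are highest with 0 or 1 contractile UMI and lowest with 10 or more.

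The 38 barcodes stood between the 2 poles of their cluster. Those with SULT1E1 and under 2 contractile UMIs, 190 barcodes, had ACTA2 at 978 CPM, DCN at 5576 CPM, C7 at 650 CPM, DKK2 at 232 CPM and IGFBP5, a binding protein of insulin-like growth factors, at 5623 CPM. Those without SULT1E1 and with 10 or more contractile UMIs, 44 barcodes, had ACTA2 at 15000.0 CPM, DCN at 2542 CPM, C7 at 144 CPM, DKK2 at 44.5 CPM and IGFBP5 at 1508 CPM. The 38 had IGFBP5 at 2603 CPM. Barcodes of the cluster with neither SULT1E1 nor 2 contractile UMIs, 159 of them, had C7 at 808 CPM, DKK2 at 238 CPM and IGFBP5 at 5338 CPM. These levels are close to those of the 190 that carry SULT1E1. The poles were chosen by 2 of the measures, and the others are given as a description.

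Within all 80, the mixed profile also varied with the contractile count. The 52 barcodes with 2 to 3 contractile UMIs had a median muscle share of 1.54%, the 17 with 4 to 9 had 2.82% and the 11 with 10 or more had 5.06%. The fibroblast share was 2.03%, 2.86% and 2.42% in the same order. SULT1E1 was 536, 534 and 561 CPM, in barcodes that were all required to carry it. The first group includes the deepest barcode, with 91725 of its 357861 UMIs and at most 14 SULT1E1 UMIs, which lowers the first value. The level without that barcode was not computed, so no trend or lack of one is read from these 3 values. Endothelial and epithelial transcripts were counted too. PECAM1 was found in 20 of the 80, against 19.5% of stroma, 18.0% of vascular smooth muscle and 23.8% of pericytes. The summed level of 18 endothelial genes was 1585 CPM, against 1077, 1375 and 2671 CPM in these classes, and that of 12 epithelial genes was 644 CPM, or 59.2 CPM without the deepest barcode, against 258, 209 and 269 CPM. Of 5 epithelial genes measured against stroma, 3 were higher with the deepest barcode and 1 without it, when 4 were lower.

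Leaving out the deepest barcode also moved some of the small list counts. With it gone, 5.33% of all genes were higher and 8.63% lower than in vascular smooth muscle, 2.81% and 4.87% than in pericytes, and 2.66% and 6.22% than in all other barcodes. Of the mural genes, 8 were then lower than in vascular smooth muscle and 7 than in pericytes, with medians of -1.04 and -1.03. Against vascular smooth muscle 2 smooth muscle genes were higher and 7 lower. Of the fibroblast genes 17 were higher and 1 lower than in vascular smooth muscle, and 13 higher and 1 lower than in pericytes. Against pericytes 2 smooth muscle genes were higher and 0 lower, and 1 sulfation gene was higher and 0 lower. In the hedgehog list 1 gene was lower than in stroma, 0 were lower than in vascular smooth muscle and 2 were higher than in pericytes. Steroid genes lower than in stroma numbered 2. Of the 16 endothelial genes 5 were lower than in all other barcodes, while all 8 leukocyte genes remained lower.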

How the data were processed

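Per the file headers, the authors deposited 1 filtered UMI count matrix per library made with Cell Ranger 6.1.0; the submitters' processing notes name version 2.1.1, and the genome build is not given in the sources used here. Library 1 held 45388759 UMIs and library 2 87514969. Of 26881 features 16128 have no symbol and were left out by name but kept in totals; rows of the same symbol were summed. UMIs were summed over the barcodes of a class and scaled to CPM, with exact Poisson or binomial 95% intervals. Log2 ratios were computed for genes of at least 10 UMIs over both sums and an average of at least 10 CPM, a minimum added after seeing the data, and called past 2-fold; a class below 3 UMIs was set to 3. Library 1 was clustered without the rule's genes (scanpy 1.11.5; 2000 variable genes, 30 components, 15 neighbours, Leiden resolution 1.0). Doublets were called with Scrublet and kept. Pericyte-like and stromal clusters were named by the fixed list with the highest mean ratio; the C7 and DKK2 cluster, whose highest list was smooth muscle, was named by its genes. The ratio step was tested on simulated data. The barcodes, marker lists and classes were chosen with earlier results of these data known. Named genes were the 10 (all barcodes) or 8 (each class) highest and lowest ratios at 100 CPM or more where higher, plus list members.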

Additional observations from a re-analysis of the deposited data

How the results depend on the processing

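Each count of genes past 2-fold is given here as a total of both directions: 805 against stroma, 820 against vascular smooth muscle, 515 against pericytes and 455 against all other barcodes. The last was 724 with at least 2 SULT1E1 UMIs, 827 with cells weighted equally and 683 with a minimum of 50 UMIs. With at least 4 contractile UMIs 28 barcodes were left, with 828 genes against pericytes and 841 against all others, and axis positions of 0.54 and 0.51 for muscle-high and stroma-high genes. With called doublets left out of all classes the counts were 1310 against vascular smooth muscle, 886 against pericytes and 841 against all others, and the stroma-high position 0.54. Thinned to 1000 UMIs, the positions were 0.53 and 0.47. Counts against pericytes and all others were 822 and 689 with a minimum of 1 UMI, and 801 and 689 without the CPM minimum. With clusters as classes the counts were 1393 against vascular smooth muscle and 903 against pericytes, and the stroma-high position 0.37. With pericytes as the muscle end the muscle-high position was 0.67. With the 38 barcodes of the C7 and DKK2 cluster alone, chosen after seeing the data like the minimum above, the counts were 930 against pericytes and 1005 against all others. The cause of these differences was not tested, beyond fewer barcodes or genes where a setting removes them. These counts do not say which genes: thinned to 1000 UMIs, 325 of 902 genes against stroma, 279 of 884 against vascular smooth muscle, 128 of 649 against pericytes and 125 of 635 against all others were among the genes called as deposited. With the 38 barcodes, 193 of the 1005 against all others were. List medians also moved. The smooth muscle median was 1.75 against stroma and 0.81 against pericytes with at least 4 contractile UMIs, and 1.70 and 0.67 with the 38 barcodes, where all 80 gave 1.08 and 0.05. With clusters as classes the mural median against pericytes was -1.93 and the fibroblast median against vascular smooth muscle 2.44, where the marker classes gave -1.29 and 1.05. In the 54 other results of counts and positions the value stayed within 1.5 times, or within its spread, of the main one. The thinned counts among them came from fewer genes, such as 4236 instead of 6390 against all others. As a share of the genes compared they thus rose more than the counts show. No stroma-high gene was left at 8-fold apart. The comparison with library 2 was not run, since it had under 50 barcodes. No paired analysis was possible because each group is 1 library. With 564775 UMIs over the 80 barcodes, a gene near 10 CPM rested on a few UMIs, and small differences were not detectable.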
